A study of Homo sapiens with 12 samples.

Results

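The effect of azacytidine given alone was measured in SW48, an established colorectal cancer line that the labels call microsatellite-instable, as every gene's signal in treated cells set against untreated cells. The arrays were chosen by their titles and number 6 of the 12 in the series. On 3 of them the RNA came from cells kept in 1 µM azacytidine (5'-Aza-cytidine in the labels) for 5 days, with the drug-containing medium renewed daily, and on 3 from untreated control cells. Both groups were SW48 cells in DMEM with foetal calf serum, glutamine and antibiotics, and carried no other agent or genetic change that the labels name. The other 6 arrays, of cells given trichostatin A alone or after azacytidine, entered the fit as further groups and supplied part of the estimate of spread. RNA was labelled and hybridised to Illumina HumanWG-6 v3 bead arrays, where each array yields 1 signal for a probe.

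Azacytidine is a cytidine analog that enters cells through nucleoside transporters and is phosphorylated by uridine-cytidine kinases. Most of it goes into RNA, and the part that is reduced to the deoxyribonucleotide goes into DNA, where it traps DNA methyltransferases on the strand and drives their degradation. CpG methylation is then lost as cells divide, and genes whose promoters were held silent by methylation, such as germline genes on the X chromosome, can be transcribed. In colorectal cancer cells the drug is known for reawakening such genes and methylated tumour suppressors.

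Replicate arrays of a group were close to each other and far from the other group. Across the tested genes, Pearson correlations were 0.993 to 0.996 among azacytidine arrays, 0.991 to 0.994 among control arrays and 0.898 to 0.91 between the groups (genes are not independent replicates). Detected probes numbered 13297, 12815 and 12495 on the azacytidine arrays, against 11963, 11742 and 11905 on the control arrays. The arrays lay on 2 chips: chip 1 held azacytidine replicate 1 and control replicates 1 and 2, and chip 2 the other 3. The labels do not say whether replicates were separate cultures. The spread behind each p-value is therefore only that between arrays of a group, over the 12 arrays of the fit. The labels give no culture time for the control cells, so the drug and any difference in time cannot be told apart. In bulk RNA, fewer cells of a type and less RNA per cell cannot be told apart either. Of the 14 colorectal epithelial markers with a probe, 8 were detected on all arrays of both groups, among them EPCAM, KRT8 and CDH17, and 6 were detected on none, including the intestinal genes KRT20 and VIL1. Their summed normalised signal was 28321 to 31214 on azacytidine arrays, against 39352 to 43860 on control arrays. Of 8 fibroblast markers, 7 were detected on no array of the 6, collagen genes included, and THY1 on the 3 azacytidine arrays only. Of 9 leukocyte and endothelial markers, 6 were detected on no array, CD14 on the 3 azacytidine arrays only, PECAM1 on 1 azacytidine array and CD68 on all 6 arrays.

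After azacytidine, most genes that cells already expressed shifted by small but repeatable amounts, and a further set of genes came on that no control array had detected. The threshold for "rose" and "fell" throughout is an adjusted p under 0.05 in limma's moderated test, with Benjamini-Hochberg adjustment over 9484 genes. By it 3063 genes (32.3%) rose and 2954 (31.1%) fell, 63.4% of those tested, and 3467 did not pass. The counts given for each gene list are to be read against these shares. Changes of 2-fold or more numbered 752 higher (7.93%) and 543 lower (5.73%), those of 4-fold or more 287 and 51, and those of 16-fold or more 70 and 3. The small changes were about equal in number, with 1200 genes higher and 1129 lower by under 0.5 on the log2 scale. All 3 azacytidine arrays lay above all 3 control arrays for 3169 genes and below them for 3080, together 65.9% of the tested genes. Within each chip, which has 1 array of one of the groups, the change had the same sign as in the whole for 3060 of the genes that rose and 2945 of those that fell. The median SE of a log2 change was 0.104. Scaling the arrays by their medians in place of quantile normalisation moved the median of all genes by −0.15, so that 1694 genes rose and 2903 fell, 36.9% of the calls higher in place of 50.9%. Directions of small changes are therefore relative to the median gene.

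**Figure D1:**
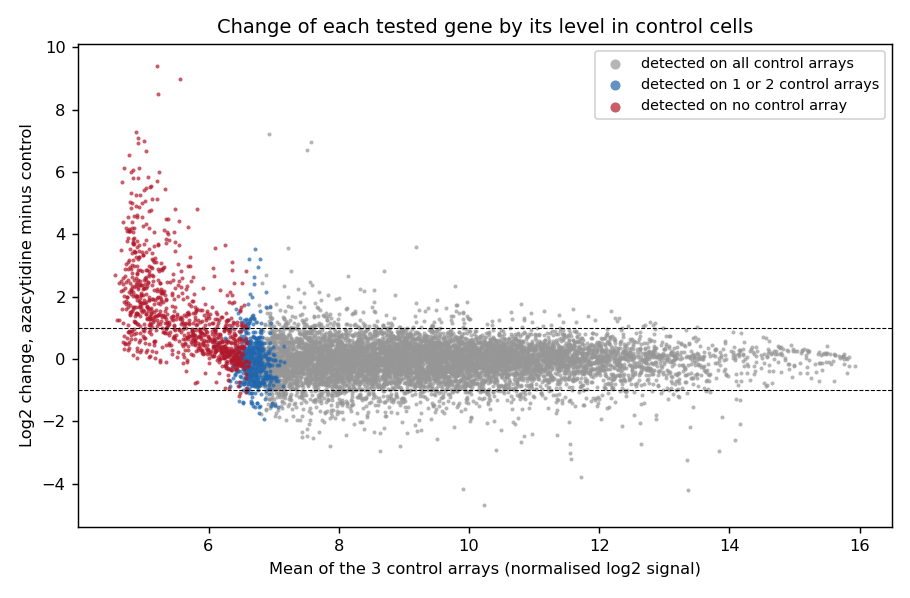
Log2 change of each of the 9484 tested genes, azacytidine minus control (vertical), against the mean normalised log2 signal of the 3 control arrays (horizontal), coloured by the number of control arrays that detected the gene. The changes above 4 on the log2 scale come almost wholly from genes detected on no control array, and the decreases spread over the whole range of control signal. Dashed lines mark 2-fold.

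The large increases were mostly appearances from below background. Of the 752 genes higher by 2-fold or more, 490 were detected on no control array, 37 on 1 or 2 and 225 on all 3. Among the 543 genes lower by 2-fold or more, 122 were detected on no azacytidine array and 354 on all 3. Of 10052 genes without detection on any control array, 572 had it on all azacytidine arrays, and 538 of these rose. Of 8009 genes seen on every control array, 119 dropped below detection on every azacytidine array, and all of them fell. A gene that is silent in control cells enters the test only if arrays of other groups detect it, and of 926 tested genes below detection on the control arrays 713 rose and 18 fell. Lists rich in genes silent in control are to be read against these counts. For such genes the fitted log2 change depends on the background correction, and a lower bound is given as "at least N-fold": the bright group's mean over the dim group's mean, in which each array enters with the probe's own signal or the lowest signal detected there, whichever is higher. The bound reached 4-fold for 92 genes that came on and for 4 that went off.

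Germline genes dominated the top of the list. Of the 40 largest increases, 23 belonged to the cancer-testis and germline list, 27 lay on the X chromosome by the RefSeq table (GAGE4 and GAGE7 not counted) and 37 were detected on no control array. The list holds genes normally expressed in testis, ovary or placenta, and 65 of its 72 tested members rose, with 2 lower. Of the 72, 58 were detected on no control array, and 713 of all 926 such tested genes rose. All 10 tested MAGE genes and all 31 other X-linked members rose, against 24 of 31 autosomal germ cell genes. The members detected on no control array were the 10 MAGE genes, 28 other X-linked and 20 autosomal ones. 8 MAGE, 13 other X-linked and 26 autosomal genes of the list had a probe but were not detected on enough arrays to be tested. The DNA-methylated state of testis-specific X-linked genes in somatic cells is textbook knowledge, and the promoters of MAGEC2 and MAGEA4 are given here beside those of an imprinted RNA gene and a WNT antagonist gene, because each of these genes came on from below detection. Each is the run of 250 bases before the RefSeq start site in GRCh38.p14, written 5′ to 3′ on the gene's strand, with every CpG, the site of DNA methylation, in capitals.
MAGEC2 (chrX:142205291-142205540, minus strand): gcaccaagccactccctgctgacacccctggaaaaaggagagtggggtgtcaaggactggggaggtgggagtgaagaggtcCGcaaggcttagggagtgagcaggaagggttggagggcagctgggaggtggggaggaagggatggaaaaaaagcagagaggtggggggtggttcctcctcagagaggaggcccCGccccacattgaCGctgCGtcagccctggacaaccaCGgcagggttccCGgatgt
MAGEA4 (chrX:151912224-151912473, plus strand): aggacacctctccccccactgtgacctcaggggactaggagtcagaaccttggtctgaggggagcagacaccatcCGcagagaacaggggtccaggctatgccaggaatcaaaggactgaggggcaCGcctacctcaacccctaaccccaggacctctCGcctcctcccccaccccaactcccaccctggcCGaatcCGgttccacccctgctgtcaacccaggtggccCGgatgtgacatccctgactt
MEG3 (chr14:100825858-100826107, plus strand): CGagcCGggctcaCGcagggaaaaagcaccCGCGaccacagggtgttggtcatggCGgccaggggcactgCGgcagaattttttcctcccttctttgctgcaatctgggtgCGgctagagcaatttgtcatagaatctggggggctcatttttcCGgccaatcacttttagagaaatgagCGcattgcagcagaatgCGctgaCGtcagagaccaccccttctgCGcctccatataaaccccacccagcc
DKK1 (chr10:52314031-52314280, plus strand): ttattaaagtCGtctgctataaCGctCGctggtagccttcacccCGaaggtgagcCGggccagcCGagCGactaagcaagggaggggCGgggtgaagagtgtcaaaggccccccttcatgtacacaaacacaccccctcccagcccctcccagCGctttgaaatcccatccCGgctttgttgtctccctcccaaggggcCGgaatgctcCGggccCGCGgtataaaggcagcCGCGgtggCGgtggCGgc

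The MAGEC2 and MAGEA4 stretches hold 6 CpG each, that of MEG3 holds 13 and that of DKK1 18, where the median of 7831 tested genes with a RefSeq promoter was 21. MAGEC2, a cancer-testis antigen that binds a ubiquitin ligase, gave log2 signals of 11.33, 11.34 and 11.32 on azacytidine arrays, against 4.70, 4.77 and 4.89 on control arrays. The 3 treated arrays were nearly equal and all lay far above the control arrays, none of which detected it (log2 change 6.54 ± 0.07 SE, at least 25-fold, adjusted p = 1.76e-15). MAGEA4 stood at 10.84, 11.27 and 11.06 after azacytidine, against 5.00, 4.97 and 4.81 in control (at least 20.7-fold). The highest bound was that of GAGE7, an X-linked testis antigen, which gave 14.72, 14.61 and 14.52 on azacytidine arrays, against 4.99, 5.14 and 5.50 on control arrays (log2 change 9.40 ± 0.12 SE, at least 243-fold, adjusted p = 3e-15). No other gene of the 9484 tested had a larger log2 change. VCX3B, of a family on the same chromosome, differed in that all control arrays detected it, with 14.64, 14.47 and 14.45 after azacytidine, against 7.48, 7.66 and 7.57 in control (log2 change 6.95 ± 0.10 SE). TKTL1, a transketolase-like gene, was at least 32.7-fold higher, and the autosomal germ cell genes SOHLH1, a spermatogonial transcription factor, and MAEL, which takes part in transposon silencing, were higher by at least 12.7-fold and 8.86-fold. Probes of near-identical family members, MAGEA, GAGE, CT45A, PAGE, SPANX, SSX and VCX among them, can bind each other's transcripts, so a value speaks for the family more than for the member. MEG3, a maternally expressed imprinted noncoding RNA, stood at 11.996, 12.07 and 11.95 after azacytidine, against 4.94, 5.00 and 5.07 in control (at least 39.9-fold, adjusted p = 1.76e-15). Its imprinted neighbour DLK1, a NOTCH-like membrane protein gene, was at least 13.3-fold higher. Among 21 tested imprinted genes 11 rose and 2 fell, and 10 of the 21 were detected on no control array.

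Other genes that came on strongly included further germ cell genes and genes of other tissues. FKBP6, a co-chaperone gene needed for male meiosis in mice, gave 11.33, 11.18 and 11.19 on azacytidine arrays, against 5.25, 5.19 and 5.28 on control arrays (log2 change 5.99 ± 0.08 SE, at least 23.4-fold, adjusted p = 4.36e-15). EEF1A2, the translation elongation factor isoform of muscle and neurons, gave 10.97, 10.69 and 10.74, against 4.97, 4.75 and 4.72 in control (at least 17.3-fold). In both genes the spread within a group was a small part of the gap between the groups. DPEP3, a membrane-bound dipeptidase gene of the testis, was at least 16.6-fold higher, TMEM47, a junctional membrane protein gene on the X chromosome, at least 18.8-fold, and ADAD2, a testis RNA-binding protein gene, at least 15.7-fold. BGN, the gene of the matrix proteoglycan biglycan, was at least 9.82-fold higher, and IFFO1, an intermediate filament family gene, at least 11.9-fold. Retroviral genes that mammals have taken into service rose in 8 of 11 tested, with 1 lower, and 6 of the 11 were detected on no control array. The X-linked paraneoplastic antigen genes PNMA3 (at least 12.5-fold) and PNMA5 (at least 8.77-fold) led the rises. ARC, a neuronal member whose protein forms capsids, was at least 3.25-fold higher.

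Genes known to be methylated in colorectal cancer were seen only in part. The list had probes for 48 genes, of which 33 were detected on none of the 6 arrays and 13 were tested, so that most of the list gave no value. Of the tested members 11 rose and 2 fell, and 7 of the 13 were detected on no control array. DKK1, a secreted WNT antagonist, gave 10.59, 10.89 and 10.89 on azacytidine arrays, against 5.50, 5.34 and 5.15 on control arrays (at least 17.2-fold). MGMT, the enzyme that removes alkyl groups from guanine and whose loss sensitises tumours to alkylating drugs, gave 9.48, 9.44 and 9.42, against 5.46, 5.32 and 5.32 in control. All treated arrays detected MGMT and no control array did (log2 change 4.08 ± 0.08 SE, at least 6.77-fold, adjusted p = 1.21e-13). RUNX3, a transcription factor downstream of TGF-beta, was at least 3.69-fold higher, and VIM, the mesenchymal filament gene, at least 15.3-fold. One of those that fell was IGFBP3, a secreted binder of insulin-like growth factors, which fell by 2.72 on the log2 scale to 8.98, 8.72 and 8.81 after azacytidine, against 11.51, 11.54 and 11.61 in control.

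**Figure D2:**
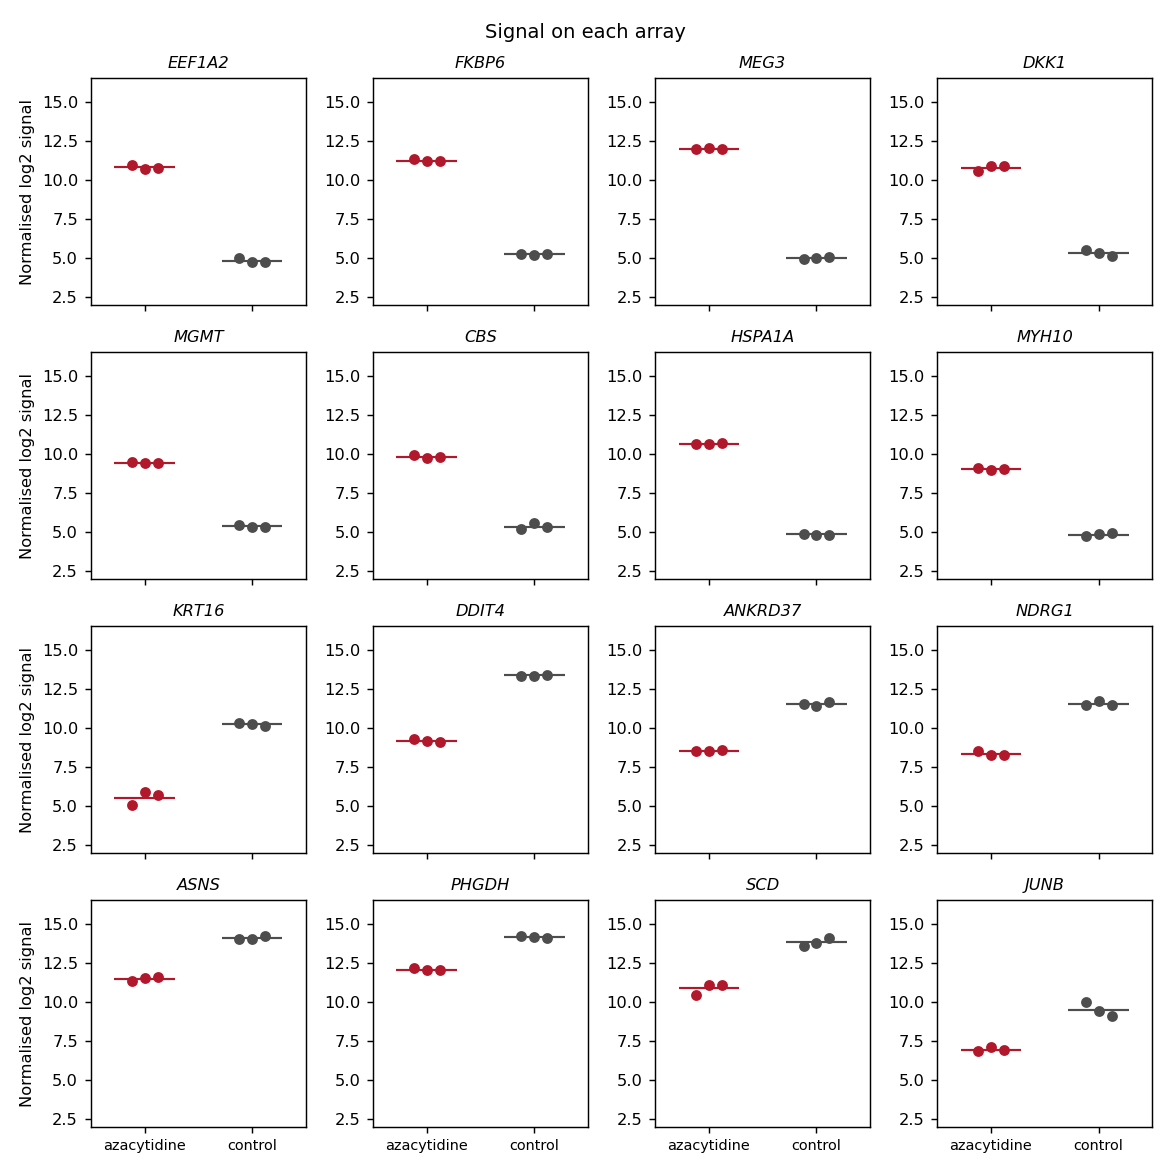
Normalised log2 signal on each array (points) and the mean of 3 arrays (lines) for 16 genes, azacytidine in red on the left and control in grey on the right of each panel. The upper 8 genes lie between 8.97 (MYH10) and 12.07 (MEG3) on the azacytidine arrays and below 6 on every control array, the lower 8 are lower after azacytidine, and the arrays of the groups overlap in none of them.

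Genes that handle the drug changed by small amounts. Of 26 tested genes for uptake, activation, breakdown and nucleotide supply, 6 rose and 14 fell, with a median log2 change of −0.30, against 0.01 over all genes. UCK2, the main activating uridine-cytidine kinase in tumour cells, gave 10.42, 10.50 and 10.35 on azacytidine arrays, against 10.34, 10.20 and 10.13 on control arrays. Its rise of 0.20 ± 0.08 SE (adjusted p = 0.0391) turned to −0.01 under median scaling, and the call was lost when any one of 4 of the 6 arrays was left out (0.15 to 0.20). UCK1, the second such kinase, changed by −0.30 ± 0.12 SE (adjusted p = 0.0436), a call lost in 16 of 21 alternative analyses, leaving out any one of 5 of the 6 arrays among them (−0.33 to −0.25). DCK, the kinase that activates the deoxy form of the drug, stood at 5.80, 6.33 and 6.05 after azacytidine, against 6.74, 6.63 and 7.17 in control. The groups did not overlap, but no azacytidine array and only 2 control arrays detected this probe (log2 change −0.79 ± 0.16 SE, at least 1.4-fold lower, adjusted p = 0.000943), and a dimmer probe of the gene changed by −0.21. CDA, the deaminase that inactivates cytidine analogs, had a log2 change of −0.60 ± 0.09 SE, and the 5′-nucleotidase NT5E one of −0.86 ± 0.09 SE. Ribonucleotide reductase fell in its S-phase subunit RRM2 (−0.83 ± 0.21 SE) and rose in the p53-induced subunit RRM2B (0.88 ± 0.11 SE). CTPS2, a CTP synthase, changed by −1.04 ± 0.08 SE.

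The main target of the drug did not pass the test at the RNA level. DNMT1, the maintenance methyltransferase whose protein the drug traps, gave 13.09, 13.35 and 13.29 on azacytidine arrays, against 13.20, 13.10 and 13.40 on control arrays, overlapping groups with a log2 change of 0.01 ± 0.09 SE (adjusted p = 0.958). DNMT3B, a de novo methyltransferase, rose by 0.59 ± 0.09 SE and UHRF1, which guides DNMT1 to hemimethylated DNA, by 0.55 ± 0.10 SE. Among 19 tested genes of methylation writers, erasers and readers 6 rose and 2 fell. GADD45G, a stress gene linked to active demethylation, was at least 3.28-fold higher, and MBD2, a reader of methylated CpG, had a log2 change of −0.53 ± 0.12 SE. DNMT3A and TET1 were below the detection filter.

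Genes of glucose breakdown fell as a group. All 20 tested glycolytic enzyme genes fell, with changes of −3.23 to −0.29 and a median of −0.85. LDHA, which makes lactate, gave 12.76, 12.92 and 12.81 on azacytidine arrays, against 14.17, 14.01 and 14.31 on control arrays, and ALDOC, an aldolase isoform, 10.15, 10.10 and 10.10, against 13.42, 13.34 and 13.29. No array of either gene crossed into the other group's range (LDHA −1.34 ± 0.10 SE, adjusted p = 1.4e-07; ALDOC −3.23 ± 0.08 SE, adjusted p = 1.51e-12). GPI, the hexose phosphate isomerase gene, fell by 1.31 ± 0.13 SE and ENO2, the neuronal enolase, by 2.02 ± 0.09 SE. HKDC1, a hexokinase isoform outside the list, went below detection on every treated array (at least 2.37-fold lower). The smallest changes were those of LDHB (−0.29), ENO1 (−0.40) and PFKFB3 (−0.48), whose call was lost without azacytidine replicate 1 (−0.36) or control replicate 3 (−0.38). Most of these enzymes are targets of the hypoxia-inducible factor HIF. Of 21 other tested HIF targets and regulators 15 fell and 4 rose (median −0.86). DDIT4, a stress-induced inhibitor of mTOR, gave 9.26, 9.15 and 9.09 on azacytidine arrays, against 13.35, 13.33 and 13.42 on control arrays, and NDRG1, a stress-responsive gene, 8.49, 8.29 and 8.27, against 11.47, 11.74 and 11.47. ANKRD37 gave 8.52, 8.52 and 8.55, against 11.55, 11.44 and 11.68 in control. These 3 fell by 4.19, 3.21 and 3.02 on the log2 scale. BHLHE40, a transcriptional repressor, had a log2 change of −2.08 ± 0.11 SE. BNIP3, a mitophagy receptor and HIF target, went the other way at 2.20 ± 0.16 SE (at least 1.61-fold), while its paralog BNIP3L fell by 1.99 ± 0.14 SE. CA12, a carbonic anhydrase, was at least 2.04-fold higher, and HIF1A itself rose by 0.48 ± 0.11 SE on its brighter probe, while its other probe changed by −0.16.

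HIF binds promoters at sites with the core ACGTG, and the stretch of 250 bases before the start site was searched for it on both strands. It was present in 15 of 31 promoters (48.4%) of the glycolysis and hypoxia genes that fell, against 24.1% of all tested genes with a promoter and 25% of all genes lower by 2-fold or more. This is a description, and E-boxes of the form CACGTG hold the same letters. The list was chosen to hold HIF targets, and 35 of its 41 tested members fell. No share was computed for the members that did not fall, so the share describes the list and cannot be tied to the decrease. The promoters of DDIT4 and ANKRD37, among the strongest decreases, are shown with the letters in capitals.
DDIT4 (chr10:72273674-72273923, plus strand): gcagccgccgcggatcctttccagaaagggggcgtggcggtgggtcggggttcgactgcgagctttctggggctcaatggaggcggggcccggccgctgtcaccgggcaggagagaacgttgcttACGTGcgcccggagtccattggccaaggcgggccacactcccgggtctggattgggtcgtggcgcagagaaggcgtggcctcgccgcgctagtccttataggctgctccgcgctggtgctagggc
ANKRD37 (chr4:185396591-185396840, plus strand): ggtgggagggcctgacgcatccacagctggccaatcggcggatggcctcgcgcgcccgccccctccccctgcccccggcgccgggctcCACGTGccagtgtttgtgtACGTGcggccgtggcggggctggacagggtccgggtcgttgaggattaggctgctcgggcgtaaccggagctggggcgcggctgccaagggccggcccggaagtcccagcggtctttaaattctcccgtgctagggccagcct

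Genes of amino acid supply fell as well. Of 13 tested genes for amino acid synthesis and transport in the ATF4 response, 12 fell and 0 rose (median −1.06). ASNS, asparagine synthetase, gave 11.35, 11.52 and 11.60 on azacytidine arrays, against 14.01, 14.01 and 14.22 on control arrays (log2 change −2.59 ± 0.10 SE, adjusted p = 1.26e-10), and PHGDH, the first enzyme of serine synthesis, gave 12.17, 12.02 and 12.04, against 14.24, 14.14 and 14.10 (log2 change −2.08 ± 0.08 SE). Both genes kept a high signal after treatment, below every control array. SLC6A9, a glycine transporter, changed by −1.87 ± 0.18 SE and PSAT1, the second enzyme of serine synthesis, by −1.42 ± 0.11 SE. Among 10 regulators of the response 5 fell and 2 rose. TRIB3, a pseudokinase induced by ATF4, and DDIT3, a stress transcription factor, had log2 changes of −2.72 ± 0.08 and −2.40 ± 0.08 SE. ATF4 itself had −0.16 ± 0.07 SE (adjusted p = 0.0593) and ATF3 rose by 0.72 ± 0.09 SE. Over 22 alternative analyses ATF4 ranged from −0.55 to −0.12, and it passed as lower in 7 of them. The serine and folate genes fell in 9 of 10 tested, with MTHFD2, a mitochondrial folate enzyme, at −1.29 ± 0.09 SE. The exception was GLDC, a glycine cleavage enzyme, at least 1.32-fold higher. In the methyl donor cycle 6 of 10 fell and 1 rose. The gene that rose was CBS, which draws homocysteine into cysteine synthesis, with 9.93, 9.74 and 9.81 on azacytidine arrays, against 5.20, 5.55 and 5.29 on control arrays, where none detected it (at least 8.82-fold, adjusted p = 2.43e-12). CTH, the next enzyme on that route, had a log2 change of −1.37 ± 0.07 SE.

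Most cytosolic tRNA synthetase genes fell. Of 19 tested cytosolic enzymes, which charge tRNAs for the cytosolic ribosome, 13 fell and 2 rose (median −0.71), and of 15 tested mitochondrial enzymes 4 fell and 4 rose (median 0.01, and −0.16 under median scaling). AARS1, the alanyl-tRNA synthetase, gave 12.05, 12.07 and 11.97 on azacytidine arrays, against 13.91, 13.95 and 13.80 on control arrays (log2 change −1.86 ± 0.07 SE). IARS1 (−1.33 ± 0.13 SE), WARS1 (−1.27 ± 0.07 SE) and SARS1 (−1.24 ± 0.11 SE) came next. RARS1 rose by 0.47. The amino acid response element, searched as TGATGNAA on both strands, was in 2 of 11 promoters of the cytosolic synthetases that fell, in 1 of 15 of the amino acid stress genes that fell, and in 1.33% of all. No share was computed for members of these lists that did not fall. The promoter that holds it in the second group is that of ASNS, a gene known for this element, shown with the letters in capitals.
ASNS (chr7:97872409-97872658, minus strand): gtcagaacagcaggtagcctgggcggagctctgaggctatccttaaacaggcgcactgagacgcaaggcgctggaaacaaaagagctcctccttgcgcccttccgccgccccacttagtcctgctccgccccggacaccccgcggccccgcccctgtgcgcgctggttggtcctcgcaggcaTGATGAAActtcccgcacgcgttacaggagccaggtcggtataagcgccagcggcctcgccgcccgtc

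Ribosomal protein genes fell more often than they rose, and proteasome and chaperone genes did the reverse. Of 67 tested cytosolic ribosomal protein genes 40 fell and 3 rose (median −0.35), with 28 of 41 lower in the large and 12 of 26 in the small subunit. RPL22 gave 10.49, 10.57 and 10.61 on azacytidine arrays, against 12.03, 11.98 and 12.33 on control arrays, and RPL28 8.05, 7.98 and 7.85, against 9.53, 9.37 and 9.44 (log2 changes −1.56 ± 0.13 and −1.49 ± 0.09 SE). RPL29 and RPS21 rose by 0.71 and 0.74. Ribosomal protein genes have many pseudogenes, whose transcripts can bind the same probes. Of 28 ribosome biogenesis genes 17 rose and 2 fell (median 0.29), with the pre-rRNA processing factors UTP20 (0.78 ± 0.18 SE) and RRP12 (0.78 ± 0.08 SE) at the top and DDX21, a nucleolar helicase, at −0.61 ± 0.16 SE. The proteasome, which degrades ubiquitin-tagged proteins, rose in 17 of 27 tested subunit genes and fell in 0 (median 0.44). PSMD1, a base subunit of the regulatory particle, gave 10.79, 10.93 and 11.02 on azacytidine arrays, against 10.06, 10.00 and 9.99 on control arrays, and PSMA5, a core particle subunit, 12.74, 12.79 and 12.69, against 11.87, 11.91 and 11.95. The groups did not overlap in either gene, though both changes stayed under 2-fold (0.90 ± 0.09 and 0.83 ± 0.07 SE).

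Cytosolic chaperones rose in 15 of 20 tested and fell in 2 (median 0.57). HSPA1A, the stress-inducible HSP70, gave 10.63, 10.60 and 10.72 on azacytidine arrays, against 4.88, 4.84 and 4.80 on control arrays. No control array detected its probe, so that the rise was at least 15.6-fold (log2 change 5.81 ± 0.08 SE, adjusted p = 5.72e-15). The near-identical HSPA1B rose by only 0.89 ± 0.11 SE, and since probes of the pair can bind both transcripts the 2 values cannot be assigned with certainty. HSPH1, BAG3 and DNAJA1, partners of HSP70, rose by 0.92 ± 0.12, 0.82 ± 0.10 and 0.80 ± 0.11 SE, and HSP90AB1 fell by 0.52 ± 0.11 SE. The heat shock element core, searched as GAANNTTC, which reads the same on both strands, was in 5 of 14 promoters of the chaperones that rose, against 4.04% of all. These letters were taken after a longer form with one more repeat of its letters found 1 of the 14. No share was computed for the chaperones that did not rise. The HSPA1A promoter holds 1 match, in capitals.
HSPA1A (chr6:31815293-31815542, plus strand): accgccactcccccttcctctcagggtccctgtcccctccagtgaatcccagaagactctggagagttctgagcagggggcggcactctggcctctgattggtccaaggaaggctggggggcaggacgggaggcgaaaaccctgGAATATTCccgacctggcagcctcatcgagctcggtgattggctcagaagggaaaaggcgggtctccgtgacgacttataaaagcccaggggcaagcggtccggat
In the endoplasmic reticulum 7 of 16 tested chaperone and stress genes rose and 5 fell (3 and 4 under median scaling), with the folding cofactors CRELD2 (1.59 ± 0.07 SE) and DNAJC3 (at least 1.62-fold) higher and HSPA5, the main reticulum chaperone, at −0.39 ± 0.08 SE.

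**Figure D3:**
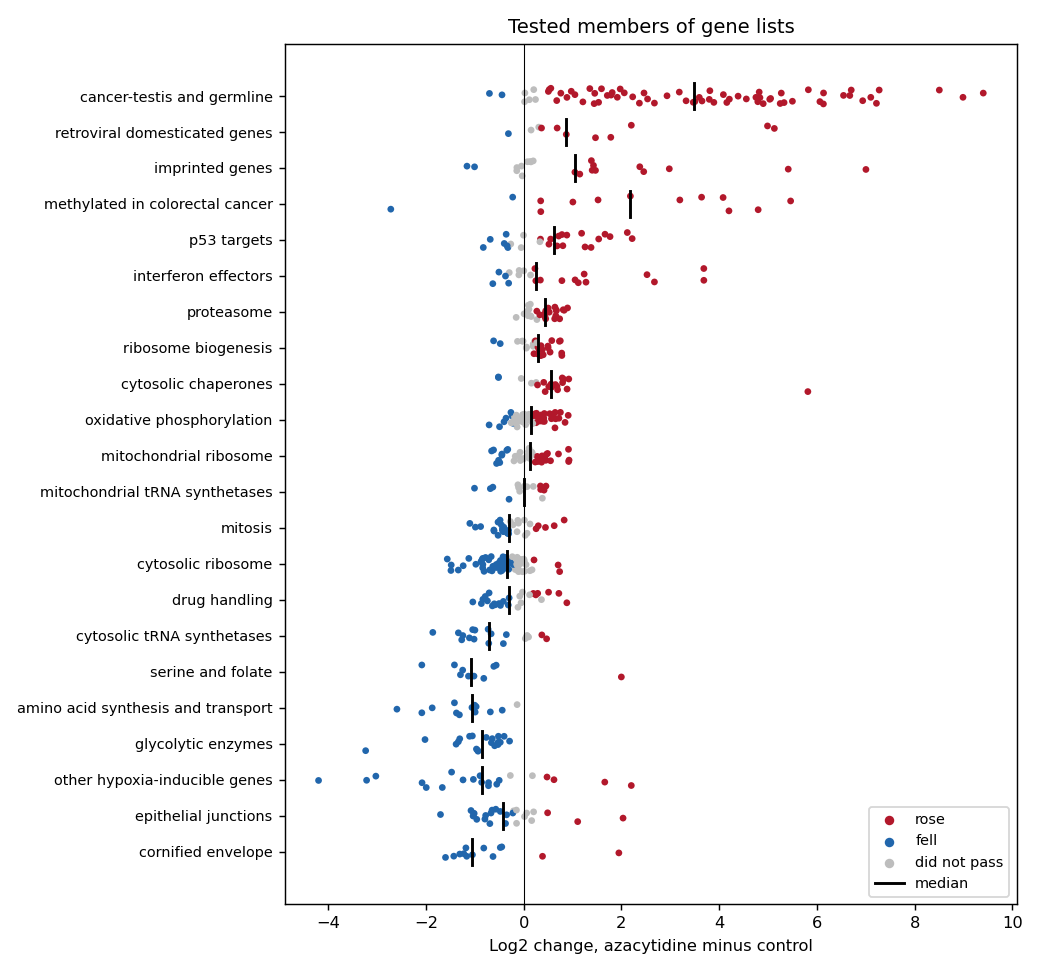
Log2 change, azacytidine minus control, of each tested member of 22 gene lists or list roles (points, red rose, blue fell, grey did not pass) with the median of the list (black bar). The glycolytic enzymes lie wholly below 0, with a median of −0.85, the tested proteasome genes that passed lie wholly above it, and the cancer-testis genes reach 9.40.

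Energy metabolism in mitochondria moved less. Oxidative phosphorylation subunits were higher in 24 of 57 cases and lower in 7, and their median of 0.16 turned to −0.04 under median scaling, where 7 rose and 10 fell. Mitochondrial ribosomal protein genes rose in 17 of 41 and fell in 9, but 4 rose and 9 fell under median scaling. Of 21 citric acid cycle genes 4 rose and 5 fell. The largest of these changes were those of NDUFA8 in complex I (0.91 ± 0.09 SE), ATP5MC1 in ATP synthase (0.85 ± 0.09 SE), MRPS6 (0.93 ± 0.06 SE) and IDH1, the cytosolic isocitrate dehydrogenase (−0.80 ± 0.10 SE). Of 15 genes for making fatty acids 6 fell and 5 rose. SCD, the desaturase that makes oleate, gave 10.45, 11.07 and 11.08 on azacytidine arrays, against 13.62, 13.78 and 14.12 on control arrays (log2 change −2.97 ± 0.19 SE), and the acyl-CoA synthetase ACSL5 had a change of −2.92 ± 0.11 SE, while the elongase ELOVL5 came up from below detection (2.01 ± 0.10 SE, at least 1.17-fold). Of 18 genes for making sterols 10 fell and 3 rose, led by INSIG1, a feedback regulator of sterol synthesis (−2.48 ± 0.12 SE), and DHCR7, the last step to cholesterol (−1.73 ± 0.13 SE). Lipid breakdown genes rose in 9 of 19 and fell in 4. CPT1C, the brain isoform of carnitine palmitoyltransferase, was at least 5.83-fold higher, beside rises of 0.81 ± 0.07 SE in the liver isoform gene CPT1A and 0.99 ± 0.15 SE in ETFDH, an electron carrier of fat oxidation. Of 14 autophagy genes 9 rose and 1 fell, with MAP1LC3A, an autophagosome membrane protein, at least 5.86-fold higher, its homologue GABARAPL1 at 0.77 ± 0.09 SE and ATG5, part of the enzyme that lipidates them, at −1.17 ± 0.14 SE. Among 21 lysosomal genes 4 rose and 7 fell, and the protease gene CTSL was at least 3.07-fold higher.

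Nutrient sensors were mixed, with 8 of 25 higher and 10 lower. TXNIP, which rises with glucose and restrains its uptake, gave 11.08, 11.01 and 11.13 on azacytidine arrays, against 12.89, 12.88 and 12.84 on control arrays (log2 change −1.80 ± 0.08 SE). DDIT4L, a paralog of DDIT4, was at least 7.14-fold higher where DDIT4 fell. The glucose transporter SLC2A3 rose by 1.99 ± 0.10 SE, and the HIF-regulated transporter SLC2A1 had a change of −0.72 ± 0.07 SE.

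Genes that p53 induces rose in 16 of 26 tested and fell in 6 (median 0.62). Of 16 death and repair genes 11 rose and 2 fell (median 0.75). Of 10 arrest and feedback genes 5 rose and 4 fell (median 0.04, lowest change −0.82). CDKN1A, the p21 cell cycle inhibitor, gave 13.97, 13.99 and 13.96 on azacytidine arrays, against 12.79, 12.84 and 12.74 on control arrays, and TP53INP1, a stress-induced target, 9.56, 9.57 and 9.65, against 7.42, 7.40 and 7.59. The treated arrays lay above every control array in both (1.19 ± 0.07 and 2.12 ± 0.08 SE). TIGAR, which lowers the glycolytic activator fructose-2,6-bisphosphate, rose by 1.67 ± 0.11 SE, AEN, an apoptotic nuclease, by 1.54 ± 0.08 SE, and SESN1, an mTOR-restraining stress gene, by 1.38 ± 0.13 SE. The death receptor gene TNFRSF10B fell by 0.40 ± 0.09 SE. Among 13 BCL2 family genes 7 fell and 4 rose. BCL2 itself changed by −1.15 ± 0.14 SE, BCL2L1 by −0.95 ± 0.16 SE and BCL2L2 by −0.87 ± 0.07 SE, and these encode protectors against apoptosis. MCL1, a further protector gene, had probes called in opposite directions (1.04 and −0.48, the brighter one lower). Of the genes that promote apoptosis, BIK, BAX and BAK1 rose by 1.54 ± 0.11, 0.78 ± 0.11 and 0.60 ± 0.12 SE and BAD fell by 0.41 ± 0.09 SE. PMAIP1, which encodes NOXA, had a change of −0.34 ± 0.12 SE, a call lost when any one of 4 of the 6 arrays was left out (−0.32 to −0.28). Of 13 caspase and death receptor genes 7 rose and 1 fell, with APAF1, the apoptosome scaffold, at 0.70 ± 0.13 SE.

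Proliferation genes fell more often than they rose. Of 31 mitosis genes 17 fell and 5 rose (median −0.31), and of 25 replication genes 10 fell and 3 rose (median −0.19). AURKB, the mitotic kinase, changed by −1.10 ± 0.08 SE and KIF11, the spindle motor, by −0.99 ± 0.09 SE. MKI67, the proliferation marker, gave 5.71, 6.48 and 5.49 on azacytidine arrays, against 6.89, 6.78 and 6.65 on control arrays. Its fall of 0.88 ± 0.22 SE lies near the detection limit. On azacytidine replicates 1 and 3 its signal was below that of DCK, which no azacytidine array detected. INCENP, a partner of AURKB in the same complex, rose by 0.83 ± 0.15 SE. CDT1, a replication licensing factor, had a change of −0.81 ± 0.10 SE and MYC one of −0.50 ± 0.08 SE. G1 regulators rose in 9 of 17 and fell in 5, both drivers (CDK6 1.24 ± 0.12 SE, CCND1 0.83 ± 0.08 SE) and inhibitors (CDKN2A 1.01 ± 0.17 SE, CDKN1C 1.05 ± 0.11 SE). Genes of double-strand break and crosslink repair fell in 11 of 23 and rose in 4, with BRCA1 at −0.85 ± 0.11 SE and the Fanconi gene FANCI at −0.92 ± 0.10 SE. Of 5 tested mismatch repair genes 3 fell and 0 rose, with MSH6 at −0.46 ± 0.08 SE.

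Chromatin genes moved in both directions. Replication-dependent histone genes rose in 7 of 11 tested and fell in 0, with H4C8 at 2.00 ± 0.15 SE (at least 1.98-fold). However, 4 of the 11 were detected on no control array, and their probes can bind several family members. MACROH2A2, a histone variant of silent chromatin, was at least 2.76-fold higher, and the linker histone gene H1-10 changed by −1.94 ± 0.11 SE. Enzymes and readers of repressive histone marks fell in 8 of 16 and rose in 3. EZH2, the Polycomb methyltransferase, gave 8.22, 8.54 and 8.65 on azacytidine arrays, against 9.21, 9.14 and 9.34 on control arrays (−0.76 ± 0.11 SE). Of its 3 probes 2 fell, and 1 changed by 0.21 without passing. SETDB1, which silences retroviral elements, had a change of −0.86 ± 0.14 SE, whereas CBX5, a reader of methylated histone H3, rose by 0.73 ± 0.11 SE.

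Many epithelial structure genes fell. The lower summed signal of the epithelial markers, given above, moved with them. CDH1 and KRT19, named below, are among those markers, so the sum is not a separate measure. Its part in these values was not tested. Desmosome, adherens and gap junction genes fell in 11 of 16 and rose in 1, and tight junction genes fell in 5 of 10 and rose in 2. JUP, the junction plakoglobin, and DSP, the plaque protein desmoplakin, changed by −1.08 ± 0.15 and −1.02 ± 0.09 SE, DSC2, a desmosomal cadherin, by −1.70 ± 0.11 SE, and CDH1, E-cadherin, by −0.69 ± 0.12 SE. The dimmer DSC2 probe changed by −0.59. GJA1, the gap junction connexin 43, was the one to rise (2.03 ± 0.11 SE, at least 1.19-fold). Keratins fell in 7 of 9. KRT16, a stress keratin, gave 5.06, 5.87 and 5.70 on azacytidine arrays, where it was not detected, against 10.32, 10.25 and 10.10 on control arrays, at least 14.6-fold lower. KRT19, a simple-epithelium keratin, gave 10.45, 11.003 and 10.78, against 12.58, 12.44 and 12.59 in control (−1.79 ± 0.16 SE). EPS8L1, an actin-linked signalling gene, was at least 11.7-fold lower and LEMD1 had a log2 change of −3.79 ± 0.11 SE. Cornified envelope and squamous genes fell in 11 of 13 and rose in 2, with the protease inhibitors SLPI (at least 1.43-fold lower) and SERPINB1 (−1.43 ± 0.09 SE) falling most and the transglutaminase TGM2 at least 1.39-fold higher. The dimmer TGM2 probe, at 0.51, did not pass. S100A14, a calcium-binding protein of epithelia, changed by −2.20 ± 0.15 SE, and 6 of 11 S100 genes fell. OVOL1, a repressor that keeps cells epithelial, fell by 2.38 on the log2 scale. Integrins fell in 5 of 11 and rose in 2: ITGB4 and ITGA3, of basal adhesion, changed by −1.58 ± 0.16 and −1.19 ± 0.11 SE, while ITGB2, the leukocyte integrin chain, was at least 2.59-fold higher. LAMB3, a chain of their laminin ligand, had a change of −2.20 ± 0.07 SE and the urokinase receptor PLAUR −2.12 ± 0.13 SE. In contrast, 11 of 18 other filament and tubulin genes rose and 2 fell, and 5 of the 18 were detected on no control array. NEFH, a neurofilament heavy chain gene, was at least 6.82-fold and TUBB6, a beta-tubulin isotype, at least 5.82-fold higher. The non-muscle myosin heavy chain genes moved in opposite directions: MYH10 gave 9.11, 8.97 and 9.04 on azacytidine arrays, against 4.71, 4.85 and 4.94 on control arrays (at least 5.11-fold higher), and MYH14 gave 5.42, 5.26 and 5.12, against 7.99, 7.55 and 6.99 (at least 2.22-fold lower).

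Gut transcription factor genes moved in both directions. Of 9 tested gut and endoderm transcription factor genes 5 fell and 3 rose. CDX2, the hindgut homeobox factor, gave 11.32, 11.45 and 11.41 on azacytidine arrays, against 9.79, 9.88 and 10.04 on control arrays, higher on every treated array (1.49 ± 0.10 SE), while the epithelial factors KLF5 and ELF3 changed by −1.41 ± 0.13 and −1.18 ± 0.09 SE. Of 6 mucus and secretion genes 5 rose and 0 fell, and of 5 absorptive genes 1 rose and 2 fell. Of these, 4 of the 6 and 3 of the 5 were detected on no control array. A further 18 and 22 genes of these lists with a probe were not detected on enough arrays. The mucin gene MUC20 was at least 2.56-fold higher. Of 17 HOX genes 7 rose and 4 fell, with HOXD1 at least 1.66-fold higher and HOXC4 at −0.97 ± 0.12 SE. Genes of other lineages came on one by one. Neuronal genes rose in 5 of 12 and fell in 4, and 5 of the 12 were detected on no control array. Among those that rose were BEX1, a small signalling adaptor on the X chromosome (at least 8.59-fold), and SCG5, a secretory granule chaperone (at least 6.9-fold). The alpha-like globin genes HBA1 and HBQ1 were higher by at least 2.61-fold and 5.2-fold.

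Signalling pathways showed ligands, inhibitors and targets moving apart. In the WNT pathway 5 of 14 ligand, receptor and antagonist genes rose and 3 fell, and 9 of 17 target and destruction complex genes rose and 7 fell (5 and 7 under median scaling). No control array detected 6 of the 14 and 2 of the 17. The antagonist gene DKK4 was at least 5.18-fold higher beside DKK1, FZD9, a receptor, at least 4.01-fold, and LEF1, a transcription factor of the pathway, at least 2.12-fold, while NOTUM, an enzyme that inactivates WNT, changed by −1.60 ± 0.16 SE and TCF7L2 by −0.91 ± 0.19 SE. Every one of the 16 tested NOTCH pathway genes passed, 9 higher and 7 lower, and 4 of the 16 were detected on no control array. The receptor NOTCH1 gave 12.12, 12.14 and 12.24 on azacytidine arrays, against 10.55, 10.70 and 10.70 on control arrays, and the target HES1 7.67, 8.03 and 7.47, against 9.13, 8.93 and 8.85 (1.52 ± 0.08 and −1.25 ± 0.12 SE). The ligand gene DLL3 was at least 2.6-fold and the target HEYL at least 2.29-fold higher, while the ligands JAG1 and DLL1 changed by −0.47 ± 0.10 and −0.93 ± 0.14 SE. In the TGF-beta and BMP pathway 6 of 13 ligand and receptor genes rose and 1 fell. TGFBR2, the receptor often mutated in microsatellite-instable tumours, rose by 0.95 ± 0.10 SE. Of 12 transducers, inhibitors and targets 6 fell with 0 higher, ID3 and ID1 at −1.93 ± 0.08 and −0.92 ± 0.07 SE. Immediate early genes fell in 9 of 18 and rose in 4. JUNB, an AP-1 subunit, gave 6.84, 7.08 and 6.90 on azacytidine arrays, against 10.01, 9.39 and 9.10 on control arrays (−2.56 ± 0.19 SE), and FOSL1, its partner, changed by −1.71 ± 0.17 SE, whereas KLF2 rose by 2.06 ± 0.10 SE. The matricellular target genes of YAP split, with CCN2 at 2.69 ± 0.11 SE and CCN1 at −1.07 ± 0.11 SE. ERBB3, a growth factor receptor, had a change of −1.89 ± 0.10 SE, and −0.35 on its dimmer probe.

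Interferon effector genes rose in 12 of 21 tested and fell in 4, and sensors and factors rose in 4 of 13 and fell in 5. Detected on no control array were 5 of the 21 and 1 of the 13. ISG15, a ubiquitin-like antiviral modifier, gave 10.89, 10.72 and 10.86 on azacytidine arrays, against 8.17, 8.01 and 8.27 on control arrays (2.68 ± 0.13 SE). HERC5, the ligase that attaches it, was at least 4.02-fold higher, IFI27 at least 4.69-fold and the virion tether BST2 at least 2.45-fold, while the antiviral gene OAS1 and the factor IRF7 changed by −0.51 ± 0.14 and −0.76 ± 0.14 SE. Class I antigen presentation genes fell in 8 of 17 and rose in 5. TAP1, a peptide transporter chain, rose by 0.72 ± 0.08 SE and its partner TAP2 changed by −0.64 ± 0.12 SE, TAPBP by −0.84 ± 0.09 SE and HLA-C by −0.68 ± 0.11 SE. Stress ligands of natural killer cells diverged, with MICB at 1.66 ± 0.24 SE and ULBP1 at −1.31 ± 0.13 SE. Of 24 cytokine and chemokine genes with a probe, 20 were detected on none of the 6 arrays.

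Detoxification genes moved in both directions. Aldehyde dehydrogenases fell in 7 of 14 and rose in 3: ALDH1A3, a retinoic acid-forming isoform, was at least 4.68-fold higher, and ALDH2, the mitochondrial acetaldehyde-oxidising enzyme, and ALDH3B1 changed by −1.32 ± 0.11 and −1.68 ± 0.17 SE. Cytochrome P450 and reductase genes rose in 5 of the 8 tested and fell in 3, and of 5 conjugation genes 2 fell and 0 rose. CYP26B1, which breaks down retinoic acid, rose by 1.35 ± 0.08 SE. CYP3A5, a drug-metabolising cytochrome P450, had a change of −2.32 ± 0.14 SE and SULT2B1, a sterol sulfotransferase, −2.80 ± 0.19 SE. The dimmer SULT2B1 probe changed by −0.87. Of 14 tested NRF2 targets 4 rose and 5 fell. Among metallothionein and zinc genes 4 of 16 rose and 7 fell, with the brain form MT3 higher by at least 3.62-fold and MT1X at −1.09 ± 0.09 SE. TFRC, the transferrin receptor, rose by 1.54 ± 0.09 SE. Of 11 circadian genes 6 fell, 1 rose and 4 did not pass. The clock repressor gene PER2 changed by −1.01 ± 0.11 SE, and CRY1, its partner, was the one that rose (0.51 ± 0.10 SE). DBP gave 5.54, 5.90 and 5.56 on azacytidine arrays, where none detected it, against 8.53, 8.18 and 7.65 on control arrays (at least 3.38-fold lower), and TEF, a factor of the same family, was at least 3.66-fold lower. Both bind the same promoter element. Guidance genes (semaphorins, ephrins, slits and their receptors) fell in 14 of 25 and rose in 6, with SEMA3B at −1.90 ± 0.11 SE and NTN1 at 1.14 ± 0.13 SE.

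The X chromosome had the highest share of genes that rose by 2-fold or more. Of 336 tested X-linked genes 79 rose by 2-fold or more (23.5%), where the other chromosomes ranged from 4.49% on chromosome 13 to 11% on chromosome 21, and 12 fell (3.57%). Counting from detection alone, 66 of 470 X-linked genes that no control array detected were detected on all azacytidine arrays (14%), against 2.29% to 8.83% on the other chromosomes. The cancer-testis families lie in clusters there and share sequence, so these genes are not independent.

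**Figure D4:**
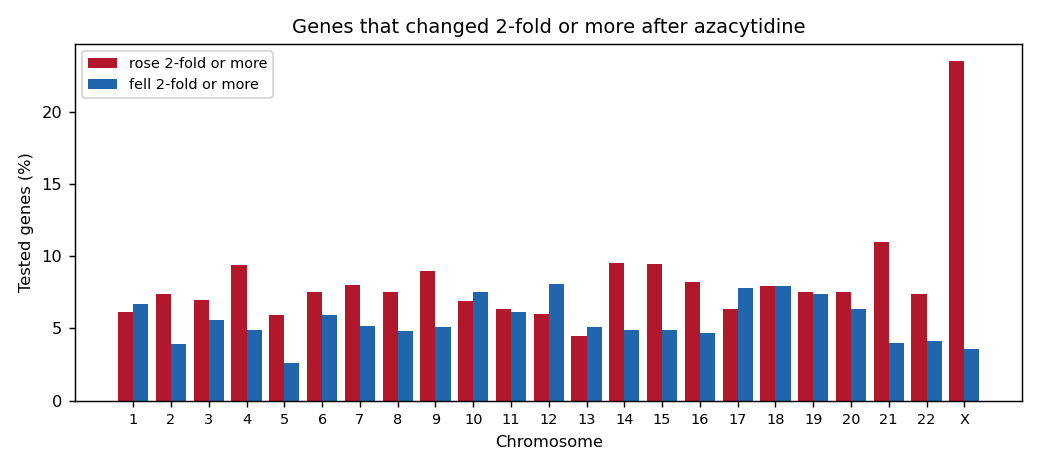
Percentage of the tested genes of each chromosome that rose (red) or fell (blue) by 2-fold or more after azacytidine. The X chromosome reaches 23.5% higher, and no other chromosome passes 11%.

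Some neighbouring genes changed together. There were 14 runs of 3 or more adjacent tested genes that all rose by 2-fold or more and 7 in which all fell. The longest held 9 genes on the X chromosome, the SPANX genes, LDOC1, MAGEC1, MAGEC2, FMR1NB and IDS, though IDS has probes called in opposite directions. The next held 6, PASD1 and 5 MAGEA genes. Among the decreases, 4 neighbours on chromosome 1 (KLHDC8A, LEMD1, BLACAT1 and CDK18) had log2 changes of −1.45, −3.79, −2.24 and −1.22, and 4 on chromosome 6 (ULBP1, RAET1L, PPP1R14C and MTHFD1L) of −1.31, −1.64, −1.23 and −1.13. No azacytidine array detected KLHDC8A or RAET1L, which were lower by at least 1.54-fold and 1.63-fold. ULBP1 and RAET1L encode related ligands of natural killer cell receptors, while the other neighbours belong to unrelated families.

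Promoters poor in CpG belonged more often to genes that changed. Of the genes with 0 to 3 CpG in the 250 bases, 13.4% rose and 10.9% fell by 2-fold or more, with 4 to 9 CpG 14.5% and 7.83%, with 10 to 19 CpG 7.99% and 4.79%, and with 20 or more 5.35% and 5.06%. Among genes detected on all control arrays the shares that rose were 4.58%, 3.09%, 3.08% and 2.22% over the same bins. The median was 12 CpG for the 51 genes higher by 16-fold or more, 17 for those that came on, 20 for those lower by 2-fold or more and 22 for those that did not pass. These are descriptions of the reference sequence, and methylation itself was not measured here.

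**Figure D5:**
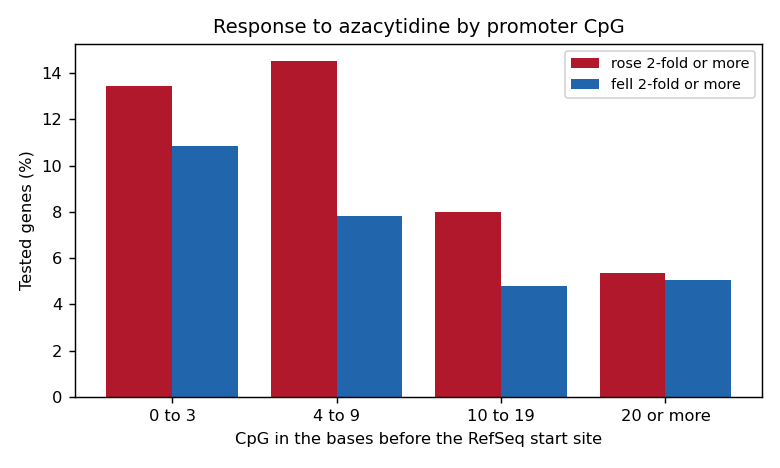
Percentage of tested genes that rose (red) or fell (blue) by 2-fold or more after azacytidine, by the number of CpG in the 250 bases before the RefSeq start site. The share that rose is 14.5% with 4 to 9 CpG and 5.35% with 20 or more.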

How the data were processed

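RNA from SW48 cells was measured on 12 Illumina HumanWG-6 v3 arrays in 4 groups of 3, on 2 chips. The deposited intensity values are bead averages per probe that were not normalised, with a detection p-value for each probe and array, per the file headers. The authors' processed values are on a log2 scale, and GenomeStudio and lumi 2.6.0 are named in the submitters' processing notes. The build behind the probes was not given in the sources used here.

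The intensities were background-corrected with limma 3.58.1 in R 4.3.3 (nec, a normexp model fitted from the detection p-values, offset 16), quantile-normalised over 12 arrays and put on the log2 scale. A probe was kept if its detection p-value fell below 0.01 on 3 or more of the 12 arrays, and the brightest probe stood for its gene. Of the probes that passed, 11694 had 1 gene symbol in the platform annotation and 2219 had none. A linear model of 4 group means was fitted to each gene (lmFit and eBayes) and the contrast was azacytidine minus control, with Benjamini-Hochberg adjustment over 9484 genes. Same-numbered replicates did not vary together (correlations of −0.08, −0.27 and 0.27), so no block was used. The model was checked on simulated data with known changes in probes well above background. That check did not cover genes near or below background. Detected probes per array are the available measure of depth, and the number of arrays limits the precision.

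The 61 gene lists hold 2201 genes. The groups compared and the lists were chosen with earlier results of these data known. Genes were named by a rule. It takes the 40 largest changes in each direction whose groups do not overlap, the largest and smallest changes of each list by role, and preset genes of drug handling and stress. It adds the genes with the largest bounds among those that came on or went off, the longest runs of neighbours, and genes with a wide spread or with probes in opposite directions. Promoters came from RefSeq (GRCh38.p14) and were matched by Entrez gene identifier. Alternatives covered the background correction, normalisation, detection filter, choice of probe, variance model, chip, replicate number and each array left out.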

Additional observations from a re-analysis of the deposited data

Results flagged for a closer look

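Probes without a single gene name took no part in the counts of genes, and some of them carried signal after azacytidine. Of 2219 probes with no gene name that passed the detection filter, 179 were detected on all azacytidine arrays and on no control array. By limma's test 626 rose and 753 fell, 184 and 178 of them by 2-fold or more, and the largest log2 change was 10.2. Among probes with 1 gene name 7.59% rose and 5.96% fell by 2-fold or more, and among the unnamed ones 8.29% and 8.02%.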

How the results depend on the processing

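The number of genes past the threshold, 6017, lay between 4597 and 6617 over the alternatives, and between 5496 and 5817 with 1 array left out. The count of changes of 2-fold or more, 1295, was 1267 to 1334 with 1 array left out, 614 without background correction and 407 on the authors' processed values. All 407 were among the 1295. Omitting the correction leaves background in the signal, which compresses folds by construction, and the cause of the lower count on the processed values was not tested. The genes that came on numbered 572, with 587 to 658 when 1 array was left out and 998 on chip 1 alone. Those that went off numbered 119, with 126 to 166 when 1 array was left out, 191 on chip 1 and 264 on chip 2. Fewer arrays have to meet the detection rule in these fits. With the replicate number as a block, 6311 genes passed and 1295 changed by 2-fold or more. The numbers did not pair the arrays. In the fits on 1 chip the group with 1 array is assumed to vary like the others. The median change of oxidative phosphorylation genes became −0.037 and that of mitochondrial tRNA synthetases −0.16 under median scaling, which also turned UCK2 to −0.0070, and DENND1A and MCL1 became 0.033 and 0.28 when their probes were averaged. The cause of the shift under median scaling was not tested. For the 14 list medians given in the text, each recomputed under 22 alternatives, 286 values stayed within the spread between replicates, 20 moved beyond it with the same sign and 2 reversed. The mitochondrial ribosome list, not among them, had a median of 0.12, and −0.08 under median scaling. Of 248 named genes, 220 kept their call under every alternative run, with the same direction where they passed. The sign of a gene that never passed could change. Genes below background in a group have only a bound there.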

Other observations

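Noncoding RNAs were not described by the gene lists. Of 67 tested long noncoding RNA genes, 14 rose (20.9%) and 7 fell (10.4%) by 2-fold or more, where protein-coding genes gave 7.79% and 5.65%. Genes detected on no control array, MEG3 among them, rose by 2-fold or more in 490 of 926 cases. How many of the 67 belong to these was not counted, so the shares of the 2 classes cannot be compared directly. Among small structural RNAs, TERC, RPPH1 and RN7SK, chosen after their values were seen, were higher on every azacytidine array, while RN7SL1, the RNA of the signal recognition particle, had a log2 change of 0.11 ± 0.06 SE (limma adjusted p = 0.146). TERC, the template RNA of telomerase, gave log2 signals of 11.06, 10.89 and 10.95 on azacytidine arrays, against 9.10, 9.38 and 9.07 on control arrays (log2 change 1.78 ± 0.10 SE, limma adjusted p = 8.44e-09). RPPH1, the RNA of RNase P, gave 9.62, 9.27 and 9.41, against 7.48, 7.87 and 7.58 in control (1.79 ± 0.14 SE). RN7SK, which holds back the elongation factor P-TEFb, gave 11.73, 11.31 and 11.60, against 9.52, 10.27 and 9.66 (1.73 ± 0.21 SE). Small nucleolar RNA genes fell in 9 of 22 and rose in 1.

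Of 1937 genes with several tested probes, 68 had probes called in opposite directions, so that the sign depends on the probe. DENND1A, a clathrin-linked exchange factor gene, had probes at 1.33 and −1.26, and N4BP2L2 at 1.52 and −0.88. Of the genes past the threshold, ARF6, a membrane traffic GTPase gene, had the widest spread among azacytidine arrays, with 5.42, 6.85 and 5.63, against 6.78, 7.06 and 6.75 on control arrays, so that the groups overlap (−0.89 ± 0.31 SE, limma adjusted p = 0.0244). The call was lost without azacytidine replicate 1 or 3 or control replicate 2 (−0.80 to −0.62).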
